A study of Mus musculus with 6 samples.

Results

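The DNA replication and G1/S genes described here are 40 genes that build, fire and supply the replication fork or control entry into S phase, taken by symbol from a table of 17866 protein-coding genes. All 40 were in the table and all 40 had enough counts to be tested. Bulk RNA-seq was made from the separated epithelial layer of the cornea. The mice were C57BL/6 and 6 months old, with 3 libraries labelled WT (wild type) and 3 labelled Rela-/- or KO. In the study, the KO animals were Krt14-Cre; Rela f/f, so that Rela, the gene of the NF-κB subunit p65, was lost from cells with a history of Krt14 promoter activity and their descendants. The study's methods name 3 independent biological samples, and whether the WT animals carried Cre or the floxed allele is not given in the sources used here. Each library held between 20158404 and 20880347 estimated counts.

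Replication is prepared in G1, when Cdc6 and Cdt1 load the ring of Mcm2 to Mcm7 onto origins. In S phase Cdc45 and the GINS proteins join that ring to form the active helicase, and polymerases, the clamp Pcna and its loader copy the opened strands. Transcription of most of these genes is switched by E2F factors, with E2f1 as an activator and E2f8 as a repressor that acts late in S phase. Genes of mitosis are switched later, through promoter elements of another kind. In the cornea, dividing cells lie in the basal layer of the epithelium and at the limbus.

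Promoter sequences are shown first, because a sequence motif was more frequent among these genes than among all promoters. The choice of members used no sequence. Most genes of this kind are switched by E2F factors, however, so an excess of E2F letters is not independent of that choice. RefSeq promoters (GRCm38.p6, from 250 bases before to 50 bases after a transcription start) were found for 32 of the 40 genes. The windows below belong to Mcm6, Mcm5 and Mcm7, whose relative levels are compared further on, to Pold3 and E2f8, the genes with the largest fall and the largest rise, and to Ccnb1, a mitosis gene for contrast. Each is written 5′ to 3′ on the strand of its gene. Capitals mark matches on either strand to an E2F 8-mer (TTTGGCGC, TTTCCCGC, TTTCGCGC or TTTGCCGC) or to the cell cycle genes homology region, CHR (TTTGAA or TTTAAA).
Mcm6 (chr1:128359656-128359955, minus strand): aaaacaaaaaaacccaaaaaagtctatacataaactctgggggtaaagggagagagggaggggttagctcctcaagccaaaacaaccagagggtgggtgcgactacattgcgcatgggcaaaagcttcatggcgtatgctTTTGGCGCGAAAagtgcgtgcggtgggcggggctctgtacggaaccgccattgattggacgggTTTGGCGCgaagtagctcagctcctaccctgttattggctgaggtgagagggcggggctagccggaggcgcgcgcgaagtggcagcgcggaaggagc
Mcm5 (chr8:75109259-75109558, plus strand): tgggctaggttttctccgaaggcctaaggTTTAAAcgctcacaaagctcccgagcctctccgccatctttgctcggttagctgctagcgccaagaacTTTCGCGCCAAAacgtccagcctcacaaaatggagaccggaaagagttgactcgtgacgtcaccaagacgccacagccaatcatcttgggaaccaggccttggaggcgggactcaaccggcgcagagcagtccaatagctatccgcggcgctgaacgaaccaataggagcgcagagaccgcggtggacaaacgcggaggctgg
Mcm7 (chr5:138171834-138172133, minus strand): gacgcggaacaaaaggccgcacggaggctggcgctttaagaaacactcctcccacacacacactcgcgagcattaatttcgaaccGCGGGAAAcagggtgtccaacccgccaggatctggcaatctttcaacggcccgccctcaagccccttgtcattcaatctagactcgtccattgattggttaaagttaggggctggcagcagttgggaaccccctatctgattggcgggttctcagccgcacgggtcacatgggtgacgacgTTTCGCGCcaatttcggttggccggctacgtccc
Pold3 (chr7:100121453-100121752, minus strand): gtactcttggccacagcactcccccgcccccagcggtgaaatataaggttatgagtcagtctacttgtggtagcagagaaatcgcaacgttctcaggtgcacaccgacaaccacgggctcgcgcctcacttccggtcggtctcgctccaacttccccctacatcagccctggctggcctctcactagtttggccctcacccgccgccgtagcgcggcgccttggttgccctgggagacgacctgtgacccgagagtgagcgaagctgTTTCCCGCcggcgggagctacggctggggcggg
E2f8 (chr7:48881547-48881846, minus strand): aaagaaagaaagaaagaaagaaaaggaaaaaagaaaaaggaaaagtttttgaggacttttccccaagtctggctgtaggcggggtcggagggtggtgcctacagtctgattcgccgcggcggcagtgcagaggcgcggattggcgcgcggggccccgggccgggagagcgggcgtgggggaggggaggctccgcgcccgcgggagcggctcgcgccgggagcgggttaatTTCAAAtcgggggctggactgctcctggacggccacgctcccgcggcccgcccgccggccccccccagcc
Ccnb1 (chr13:100786437-100786736, minus strand): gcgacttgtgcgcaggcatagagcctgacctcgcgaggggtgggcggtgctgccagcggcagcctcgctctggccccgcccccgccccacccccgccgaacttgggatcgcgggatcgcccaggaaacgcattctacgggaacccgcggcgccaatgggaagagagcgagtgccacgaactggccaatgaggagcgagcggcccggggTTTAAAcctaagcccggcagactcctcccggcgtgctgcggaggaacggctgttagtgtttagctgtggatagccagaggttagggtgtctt

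An E2F 8-mer was present in a promoter of 12 of the 32 genes (37.5%), beside 2.61% of 27025 genes and 1 of 30 mitosis genes (3.33%). Of 52 further replication genes, described below, 43 had a promoter, and 12 of these (27.9%) held an E2F 8-mer. The motif was thus not particular to the genes chosen here. The 32 genes had 36 windows, and a gene with several counted if any of them held a match. The 12 genes among the 32 were Mcm3, Mcm5, Mcm6, Mcm7, Cdc6, Cdt1, Pola1, Pold3, Clspn, Dtl, Uhrf1 and Hells. In the Mcm6 window, 8-mers began 110, 106 and 47 bases before the start, and the first pair overlapped as the stretch TTTGGCGCGAAA. The Mcm5 window held the same stretch on the other strand, with 8-mers beginning 153 and 149 bases before the start. Of the 27025 genes, 4 had this 12-base stretch in a promoter (0.0148%). In the Mcm7 window shown, the matches lay 165 bases before and 17 bases after the start. Another window of Mcm7 had no E2F 8-mer. The single match of Pold3 lay 18 bases after its start. The E2f8 window had no E2F 8-mer and 1 CHR match. On the chromosome it reached 48881846, short of the outer end of the gene at 48882073. The bases from there outward were not searched.

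CHR letters, in contrast, were in a promoter of 31.3% of the 32 genes and of 30.6% of all genes. For the mitosis genes the share was 83.3%, and for the further replication genes 23.3%. The CCAAT box was found for 65.6% of the replication and G1/S genes, 76.7% of the mitosis genes, 48.8% of the further replication genes and 41.1% of all. The NF-κB consensus, searched by its usual degenerate form, was in 2 of the 32 (6.25%), beside 5.14% of all genes. Motifs were searched on both strands, and matches were counted whether or not they overlapped another match. A match of letters is a description of the sequence and not a site of binding.

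**Figure D1:**
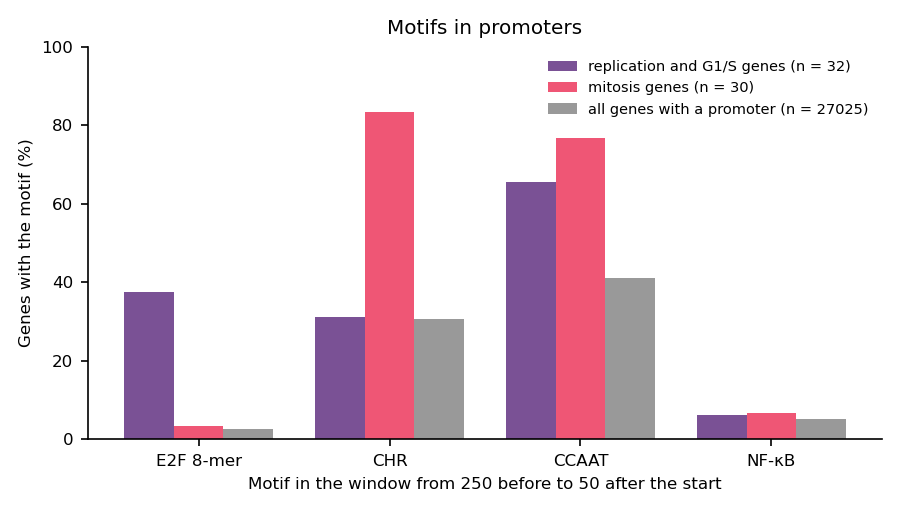
Share of genes with each motif (%, bars from 0) in the window from 250 bases before to 50 after a RefSeq transcription start, for the 32 replication and G1/S genes with a promoter, 30 mitosis genes and all 27025 genes. The E2F 8-mer was in 37.5% of the first set and 3.33% of the second, and CHR in 31.3% and 83.3%.

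The libraries and labels were checked before the genes were compared. Rela averaged 86.4 ± 1.21 CPM over the 3 WT libraries and 14.3 ± 2.71 CPM over the 3 KO libraries (± SD), and its log2 fold change was -2.60. CPM is the count scaled to a library of 1000000 after TMM normalization. All 6 corneal epithelium markers were lower in KO, Krt12 included, and 6 of 8 markers of suprabasal epidermis were higher and 1 lower. In all, 8253 of 13305 tested genes (62.0%) differed at an adjusted p of 0.05 in edgeR's quasi-likelihood test, 31.8% higher and 30.2% lower in KO. These percentages are the background for every count below.

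WT replicate 2 stood apart for the replication and G1/S genes. It was the highest WT library for 40 of the 40 genes, against 33.7% of all tested genes, and the highest of all 6 libraries for 29, against 12.6%. Its level was a median of 1.82 times the mean of the other WT libraries, from 1.09 times for Tyms to 2.36 times for Mcm5, beside a median of 0.996 over all tested genes. WT replicate 3 was the lowest WT library for 34 of the 40 genes, against 34.2%. Among the mitosis genes the same ratio had a median of 1.28, and WT replicate 2 was the highest WT library for 28 of 36.

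The spread within WT was wide for these genes. The median SD of log2(CPM + 1) among WT libraries was 0.514 for the 40 genes and 0.120 for all tested genes. Among KO libraries it was 0.209 and 0.149. Among the KO libraries, KO replicate 1 was lowest for 32 of the 40 genes, against 38.2% of all tested genes. WT replicate 2 also held more S100a9, a calcium-binding protein of myeloid cells and stressed epithelium, at 58.8 CPM beside 0.779 and 1.33 CPM in the other WT libraries. Its Krt14 level was 1181 CPM beside 239 and 318 CPM. Cell type markers were also read as lists. Over the 13 leukocyte markers tested, the median ratio of this library to the mean of the other WT libraries was 0.752. These ratios ran from 0 to 314. Some of these markers were near 0 in WT, where a ratio says little about leukocyte content. WT replicate 2 was the highest WT library for 3 of these markers. For the 10 basal epithelium genes, Krt14 among them, the median ratio was 1.13. WT replicate 2 was the highest WT library for 7 of these, against 33.7% of all tested genes. The summed basal level was 37417 CPM in WT replicate 2, beside 34078 and 33262 CPM in the other WT libraries. Whether these features have a part in the replication gene levels was not tested. The counts over the genes, and the values that change without this library, are therefore given with and without it.

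Genes with an E2F 8-mer had a median WT replicate 2 ratio of 2.04 (12 genes, range 1.2 to 2.36), and those with a promoter but no 8-mer had 1.66 (20 genes, range 1.09 to 2.27). The ranges overlapped over most of their length.

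Levels between genes were compared per length. Pcna, the sliding clamp, had the highest FPKM, at 64.8 ± 18.9 FPKM in WT and 69.2 ± 11.4 FPKM in KO (± SD, 3 libraries each). Next came Rrm1, at 24.0 ± 5.87 FPKM in WT and 29.8 ± 3.94 FPKM in KO, followed by Rfc2 and Mcm6 in WT and by Mcm7 and Nasp in KO. The repair gene Brip1 had the lowest mean in both genotypes, at 1.52 ± 0.469 FPKM in WT and 1.45 ± 0.226 FPKM in KO, with Blm and Exo1 next in WT and Exo1 and Cdc6 next in KO. The FPKM ranges of Rrm1 overlapped those of Rfc2 in WT and of Mcm7 in KO, and those of Brip1 and Exo1 overlapped in each genotype. For 15 of the 40 genes, Mcm5, E2f8, Pold3 and Wdr76 among them, the estimated counts were not whole numbers, because RSEM divides reads that match several genes, and these levels are uncertain to that extent.

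**Figure D2:**
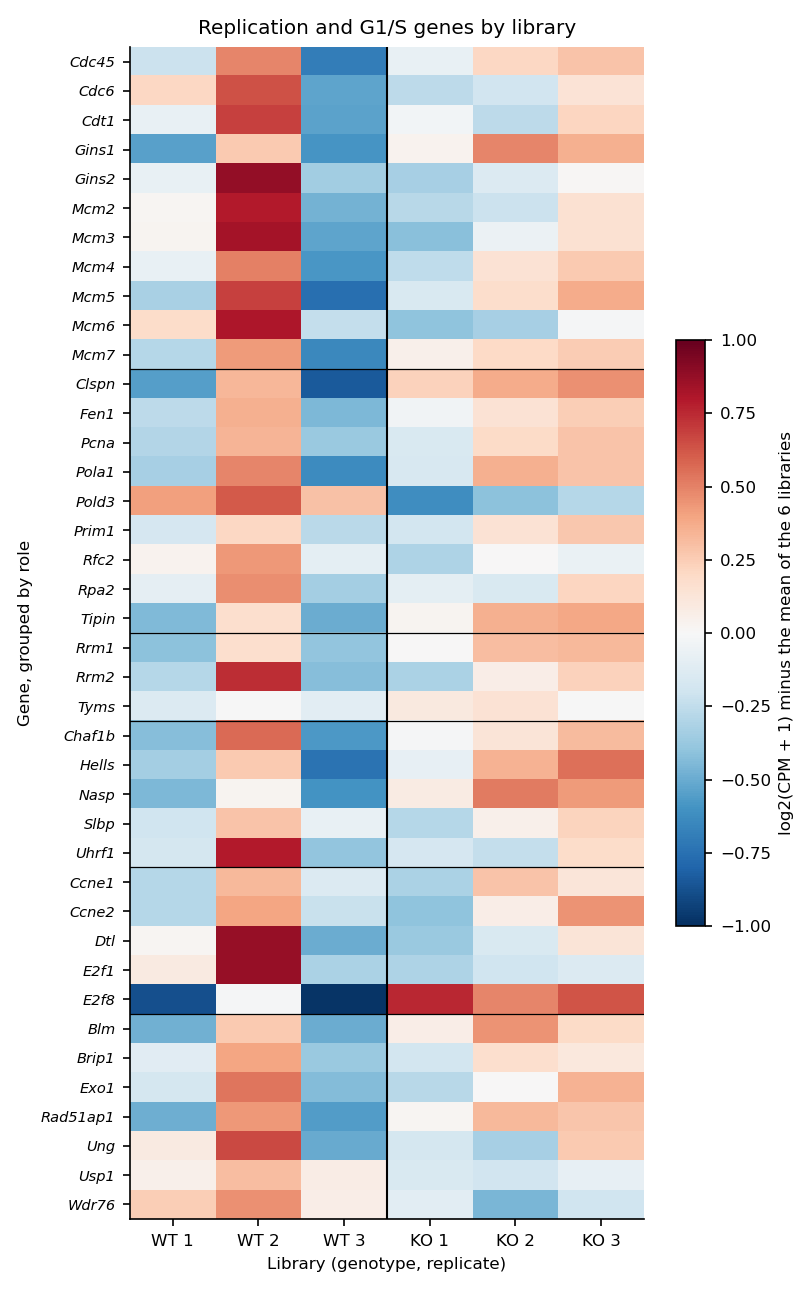
Level of each of the 40 genes (rows, grouped by role) in each library (columns), as log2(CPM + 1) minus the mean of the 6 libraries, from blue (lower) to red (higher). WT replicate 2 is the reddest WT column for all 40 genes, while Pold3 and E2f8 separate the genotypes in opposite directions.

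Against this spread, few of the genes were called between genotypes. With all 6 libraries, 5 of the 40 passed an adjusted p of 0.05 (12.5%), beside 62.0% of all tested genes. E2f8 and Nasp were higher in KO, and Pold3, Usp1 and Wdr76 were lower. For the same 5 genes the groups did not overlap, where 68.6% of all tested genes did not. The median log2 fold change of the 40 genes was 0.06, beside 0.01 for all tested genes, with 23 positive and 17 negative values. The study itself counted a gene as changed when the adjusted p was no more than 0.001 and the fold no less than 2, and by this stricter rule edgeR called 0 of the 40 and 19.8% of all tested genes. DESeq2 called 1 there, and 8 of the 40 had an unadjusted p under 0.05, as had 8726 of the 13305 tested genes.

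A missed threshold does not show that the other genes were equal. Of the 35 genes not called, 23 had a 95% interval of the difference that lay within a 2-fold change either way, and 12 had a wider one.

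WT replicate 2 was the highest WT library for all 40 genes, so leaving it out was bound to raise their log2 fold changes. Without WT replicate 2 both the number and the direction of the calls differed. Then 17 of the 40 genes were called (42.5%, background 58.1%), 16 of them higher (background 31.2%) and only Pold3 lower (background 26.9%). The median log2 fold change was 0.36, beside 0.04 for all tested genes, with 34 positive and 6 negative values. Of the 5 genes called with all libraries, 3 were called again, namely E2f8, Nasp and Pold3. By the study's rule, 2 of the 40 were called without this library (background 17.8%).

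**Figure D3:**
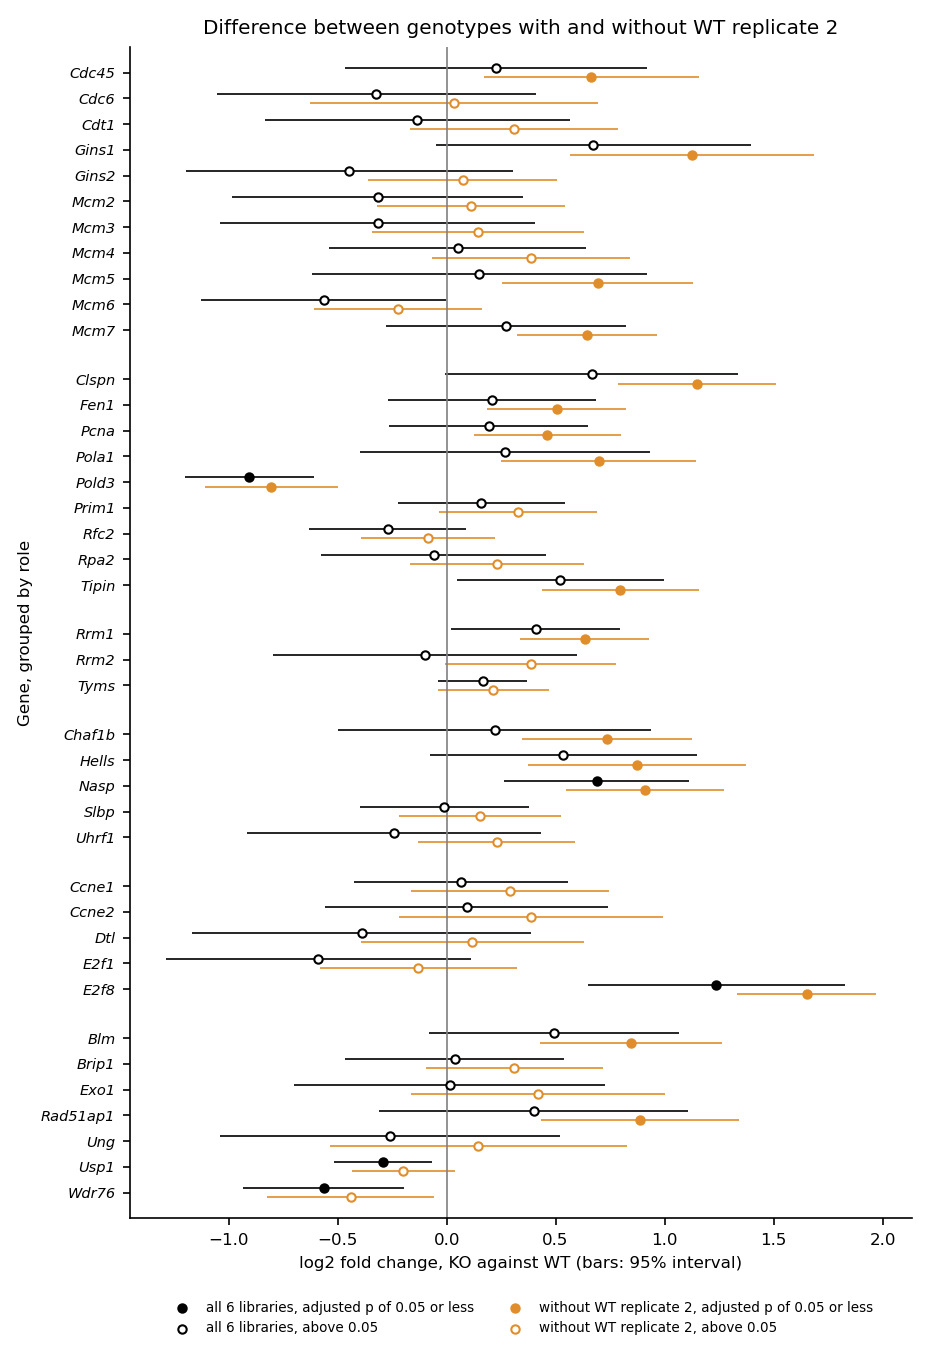
Log2 fold change of KO against WT for each of the 40 genes (points) with 95% interval (bars), with all 6 libraries (black) and without WT replicate 2 (orange); filled points have an adjusted p of 0.05 or less. 5 points are filled in black and 17 in orange. The orange points lie to the right of the black ones for every gene, which follows from leaving out the highest WT library.

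Among the origin-loading and helicase genes, none of the 11 was called with all libraries, 1 had an unadjusted p under 0.05, and their log2 fold changes ran from -0.56 to 0.67. In Mcm5, a subunit of the helicase ring, the WT libraries held 35.5, 72.5 and 26.1 CPM and the KO libraries 40.01, 50.5 and 58.2 CPM. All KO values lay between WT replicate 1 and WT replicate 2, so the groups overlapped (log2 fold change 0.15, SE 0.335, adjusted p = 0.720). Without WT replicate 2, Mcm5 was called higher (0.69, SE 0.190, adjusted p = 0.0145).

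Mcm6 was the one ring subunit with a negative value in both fits. It had 63.1, 97.8 and 46.8 CPM in WT and 41.8, 43.8 and 54.9 CPM in KO. Here too the groups overlapped, through KO replicate 3 and WT replicate 3 (log2 fold change -0.56, SE 0.245, adjusted p = 0.0746), and without WT replicate 2 the value was -0.22. It was called lower in 3 of the 17 alternative fits, among them DESeq2 and total counts. Mcm7 had 43.2, 71.6 and 33.7 CPM in WT and 55.0, 61.0 and 63.4 CPM in KO. Its log2 fold change was 0.27 (adjusted p = 0.351), and 0.64 without WT replicate 2 (adjusted p = 0.00483). Exons of Mcm7 overlap those of Ap4m1 and Cops6 on the opposite strand by 321 and 64 bases, and the sources used here do not say whether reads were counted by strand.

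Gins1, a subunit of the GINS complex, was scarce, with 2.47, 5.07 and 2.37 CPM in WT and 4.20, 6.12 and 5.48 CPM in KO. KO replicate 1 lay below WT replicate 2, and the log2 fold change of 0.67 did not pass (adjusted p = 0.0954). It was 1.13 without WT replicate 2 (SE 0.243, adjusted p = 0.00480). Gins2 of the same complex had 7.42, 15.3 and 5.97 CPM in WT and 6.03, 7.07 and 7.92 CPM in KO, with log2 fold changes of -0.45 and 0.07 in the fits with and without that library. With the gene length offset Gins2 was called lower (-0.93). Its exons overlap Gse1 on the opposite strand by 2758 bases. The loading factors Cdc6 and Cdt1 had log2 fold changes of -0.32 and -0.13 with all libraries and were not called in either fit. Cdc45 was called only without WT replicate 2 (0.66, adjusted p = 0.0275).

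Summed over Mcm2 to Mcm7, the level was 271, 456 and 196 CPM in WT and 242, 284 and 326 CPM in KO, so that all KO libraries lay within the WT range. Since the 6 proteins form one ring with 1 copy of each, the share of each subunit in the summed Mcm2 to Mcm7 FPKM, a level per gene length, was compared within libraries. This comparison was chosen after the values had been seen and carries no test. Mcm6 took 22.1% ± 1.12 of the sum over the 3 WT libraries and 15.96% ± 0.993 over the 3 KO libraries (± SD). Mcm7 took 20.5% ± 1.01 in WT and 26.2% ± 1.86 in KO. For both, every KO library lay outside the range of the WT libraries, WT replicate 2 included.

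Mcm5 also had a higher share in KO (14.9% in WT, 18.1% in KO), and Mcm2 and Mcm3 a lower one, from 13.9% to 11.9% and from 14.4% to 12.5%. Mcm4 overlapped between groups. The FPKM ratio of Mcm7 to Mcm6 was 0.891, 0.944 and 0.944 in WT and 1.67, 1.79 and 1.48 in KO. Such separations were frequent among these genes, since 376 of the 780 ratios between pairs of the 40 genes (48.2%) did not overlap between genotypes. Among the 15 pairs of ring subunits, 11 did not.

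**Figure D4:**
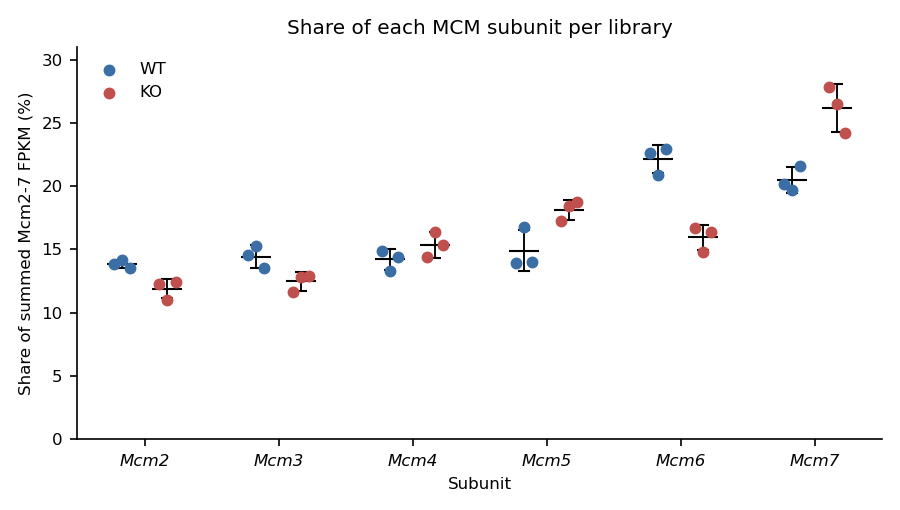
Share of each subunit in the summed FPKM of Mcm2 to Mcm7 (%, axis from 0) in each WT (blue) and KO (red) library, with mean and SD. Mcm6 lies lower and Mcm7 higher in all 3 KO libraries than in any WT library, and only Mcm4 overlaps.

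Among the polymerase, clamp and fork genes, Pold3 was the exception. It encodes an accessory subunit of DNA polymerase delta (gene 67967, GRCm38 chromosome 7, positions 100082111 to 100121560). It had 40.1, 46.2 and 36.9 CPM in WT and 19.1, 22.3 and 24.4 CPM in KO. Every KO value was below every WT value, and Pold3 fell by 0.90 on the log2 scale (SE 0.129, adjusted p = 4.13e-04). The value without WT replicate 2 was -0.80 (adjusted p = 0.00130), and Pold3 was called in all 17 alternative fits.

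Pcna stood at 66.9, 104 and 63.3 CPM in WT and at 73.7, 93.6 and 101 CPM in KO, so that WT replicate 2 was above all KO libraries and the other WT libraries below them. The catalytic subunit of polymerase alpha, Pola1, had 13.7, 24.8 and 10.9 CPM in WT and 15.4, 22.6 and 21.4 CPM in KO. Clspn, whose product claspin travels with the fork and relays checkpoint signals, had 8.29, 16.2 and 6.63 CPM in WT and 15.04, 16.6 and 17.7 CPM in KO. These genes shared one order, in which only WT replicate 2 reached into the KO range or above it.

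None of the 3 was called with all libraries (log2 fold changes 0.19, 0.27 and 0.67), and each was called higher without WT replicate 2 (0.46, 0.70 and 1.15). The flap endonuclease gene Fen1 and the fork protection gene Tipin were likewise called only then among these fits, at 0.50 and 0.80. Tipin was called in 6 of the 17 alternatives and Clspn in 4. The primase Prim1, the clamp loader subunit Rfc2 and the single-strand binding subunit Rpa2 were not called in either fit, with log2 fold changes of 0.16, -0.27 and -0.06 with all libraries.

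Both subunits of ribonucleotide reductase, which makes deoxynucleotides, were measured. The large subunit Rrm1 had 80.3, 120 and 80.9 CPM in WT and 107, 132 and 134 CPM in KO. The small subunit Rrm2, whose level follows S phase more closely, had 26.3, 54.5 and 23.8 CPM in WT and 25.8, 33.9 and 38.0 CPM in KO. WT replicate 2 thus exceeded 1 KO library for Rrm1 and all of them for Rrm2. The log2 fold changes were 0.41 for Rrm1 (adjusted p = 0.0644) and -0.10 for Rrm2 (adjusted p = 0.795), and without WT replicate 2 they were 0.63 (adjusted p = 0.00350) and 0.39 (adjusted p = 0.0844). Rrm1 was called in 5 of the 17 alternatives. Tyms, thymidylate synthase, varied least between WT libraries, at 41.5, 45.6 and 42.3 CPM, and was not called in either fit.

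Of the genes of chromatin and histone supply, Nasp rose. Its product is a chaperone of histones H3 and H4 (gene 50927, GRCm38 chromosome 4, positions 116601052 to 116647765). It had 24.7, 34.8 and 22.3 CPM in WT and 36.2, 49.3 and 46.2 CPM in KO. The groups did not overlap, although KO replicate 1 lay close to WT replicate 2. Nasp rose by 0.69 on the log2 scale (SE 0.185, adjusted p = 0.0112), and by 0.91 without WT replicate 2, and it was called in all 17 alternative fits.

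Hells, a chromatin remodeler, and Chaf1b, a subunit of the chromatin assembly factor CAF-1, were called higher only without WT replicate 2 (0.87 and 0.74). Uhrf1, which keeps DNA methylation at the fork, had 31.4, 62.5 and 26.9 CPM in WT and 31.7, 29.9 and 40.5 CPM in KO and was not called in either fit. The histone mRNA binding protein gene Slbp had a log2 fold change of -0.01, whose sign turned with the size factors used.

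E2f8 (gene 108961, GRCm38 chromosome 7, positions 48866429 to 48882073) had the largest change of the 40 genes. It had 10.6, 20.24 and 9.80 CPM in WT and 34.9, 28.9 and 32.1 CPM in KO, and all KO values lay above WT replicate 2. E2f8 rose 2.36-fold, or by 1.24 on the log2 scale (SE 0.257, adjusted p = 0.00317). The log2 value without WT replicate 2 was 1.65 (SE 0.138, adjusted p = 4.24e-05). E2f8 was called in all 17 alternative fits. Its exons overlap those of the transcript Gm2788 on the opposite strand by 610 bases.

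The activator E2f1 had 7.60, 13.8 and 5.49 CPM in WT and 5.52, 6.02 and 6.33 CPM in KO, within the WT range (log2 fold change -0.59, adjusted p = 0.127, and -0.13 without WT replicate 2). In FPKM the ratio of E2f8 to E2f1 was 1.08, 1.14 and 1.39 in WT and 4.85, 3.73 and 3.99 in KO. This ratio, chosen after its values were seen, did not overlap between genotypes. The cyclin E genes Ccne1 and Ccne2, which drive entry into S phase, overlapped between groups, with log2 fold changes of 0.07 and 0.09 and no call in any of the 17 alternatives. Dtl, the substrate receptor that has Cdt1 degraded in S phase, had -0.39 and 0.12 in the fits with and without WT replicate 2.

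The repair genes of the set included the remaining falls. Usp1, the deubiquitinase of Pcna and Fancd2, had 65.7, 78.8 and 66.9 CPM in WT and 57.1, 55.4 and 60.0 CPM in KO. Wdr76, which encodes a WD-repeat protein, had 12.002, 14.05 and 10.5 CPM in WT and 9.17, 6.97 and 8.57 CPM in KO. Neither gene overlapped between groups. Usp1 fell by 0.29 on the log2 scale (SE 0.0984, adjusted p = 0.0295) and Wdr76 by 0.56 (SE 0.161, adjusted p = 0.0149). Leaving out WT replicate 2, neither passed, at -0.20 for Usp1 (adjusted p = 0.133) and -0.44 for Wdr76 (adjusted p = 0.0504). Both calls were also lost with the gene length offset (-0.14 and -0.38), and that of Usp1 without KO replicate 1, KO replicate 2 or WT replicate 3 (-0.29, -0.27 and -0.32).

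Blm, a helicase of recombination, was called higher only without WT replicate 2 among these fits (0.85). Exo1, Brip1 and Ung, genes of resection, interstrand crosslink repair and uracil removal, were not called in either fit, with log2 fold changes of 0.01, 0.04 and -0.26 with all libraries.

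Other genes of the same pathway were read from the same fit, in lists drawn up with earlier results of these data known. Of 52 further replication genes, all tested, 11 were higher and 10 lower in KO, with a median log2 fold change of 0.20. With WT replicate 2 left out, 24 were higher and 5 lower. The regulatory kinase subunit Dbf4, which activates the MCM ring, had 7.65, 10.8 and 8.48 CPM in WT and 23.6, 29.5 and 27.4 CPM in KO (log2 fold change 1.58, adjusted p = 6.01e-05). Samhd1, which breaks down deoxynucleotides and is also active in myeloid cells, had a log2 fold change of 2.26, and the ribonuclease H2 subunit gene Rnaseh2c 1.42. Of the small subunits of polymerase epsilon, Pole3 rose (1.07) and Pole4 fell (-1.01). The ligase Lig1 was not called (-0.21), while Tk1, thymidine kinase, was called higher (0.73). With the gene length offset, Pole3 (0.12) and Tk1 (0.47) were no longer called. Tk1 was called in 12 of the 17 alternatives, and its call was also lost on leaving out KO replicate 2 (0.69), KO replicate 3 (0.70), WT replicate 1 (0.58) or WT replicate 3 (0.59).

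Among 30 regulators of G1 and S, 8 were higher and 8 lower, and with WT replicate 2 left out 9 and 7. The D cyclins Ccnd1 and Ccnd2, which act at the start of G1, fell by 1.38 and 1.26 on the log2 scale. Ccnd1 had 428, 474 and 338 CPM in WT and 161, 126 and 190 CPM in KO, and its groups did not overlap. Myc (1.53), E2f2 (1.33), Ccna2 (0.93) and the inhibitor gene Cdkn2a (0.95) rose, though Cdkn2a was called in only 12 of its 16 alternative fits and not with the gene length offset (0.37), without KO replicate 1 (0.70), without WT replicate 1 (0.80) or without WT replicate 3 (0.95). Cdkn1a, which encodes p21, was not called and had a log2 fold change of 0.04 that was negative under total counts, the length offset and limma. Of 30 further repair genes of S phase, 1 was higher and 6 lower, with Parp1 (-1.01), Rmi1 (-0.72) and Atrip (-0.58) among the falls and Rbbp8 (0.69) as the rise. With WT replicate 2 left out, 5 of these 30 were higher and 5 lower.

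Of 36 mitosis genes, 32 were higher and 2 lower in KO (94.4%), the groups did not overlap for 34, and they had a median log2 fold change of 1.03. When WT replicate 2 was left out, 33 were higher and 1 was lower. Ccnb1, the cyclin of entry into mitosis, had 14.9, 18.5 and 17.5 CPM in WT and 48.6, 58.9 and 53.3 CPM in KO (log2 fold change 1.66). Cenpa (1.63), Cdc20 (1.55), Ckap2 (1.48), Cdk1 (1.41), Top2a (1.16) and Mki67 (1.05) also rose.

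The summed level of the 40 replication and G1/S genes was 938, 1463 and 811 CPM in WT and 962, 1128 and 1225 CPM in KO. That of the 36 mitosis genes was 802, 1033 and 878 CPM in WT and 1633, 1718 and 1668 CPM in KO. The first sum overlapped between genotypes and the second did not. The ratio of the second to the first was 0.856, 0.706 and 1.08 in WT and 1.70, 1.52 and 1.36 in KO. In bulk tissue, fewer cells in a phase and less RNA per cell cannot be told apart.

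**Figure D5:**
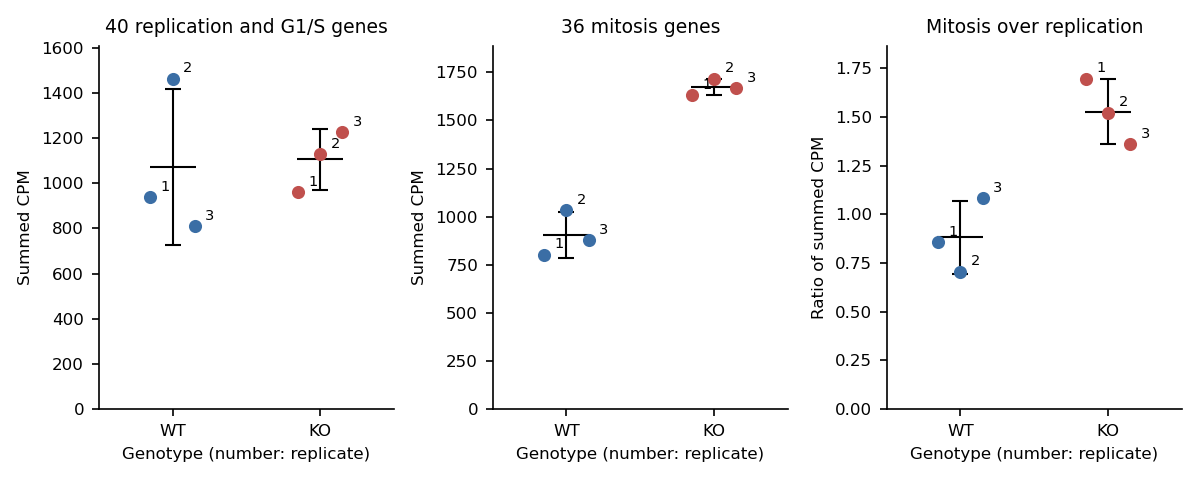
Summed CPM of the 40 replication and G1/S genes, summed CPM of the 36 mitosis genes, and the ratio of the second to the first, in each WT (blue) and KO (red) library (numbers are replicates), with mean and SD, axes from 0. The replication sums overlap, with WT replicate 2 highest at 1463 CPM, while the mitosis sums and the ratio are separate.

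Markers of other cells moved with genotype beside these genes. Of the 18 leukocyte markers, 13 were tested, with 12 higher and 1, Itgam, lower in KO, and their summed level was 271 to 323 CPM in WT and 445 to 876 CPM in KO. The pan-leukocyte gene Ptprc reached 0.233 to 0.595 CPM in WT and 4.36 to 6.13 CPM in KO, and the B cell gene Ms4a1 was at 0 in 5 of the 6 libraries. Of 12 fibroblast and keratocyte markers, 7 of 9 tested were higher and 2 lower, their sum was 421 to 621 CPM in WT and 218 to 247 CPM in KO, and Lum was at 0 in all 3 WT libraries. Endothelial markers summed to at most 0.853 CPM in WT and 1.86 CPM in KO, with 1 of 8 tested, Pecam1, which was higher. Of the basal epithelium genes, 1 of 10 was higher, Krt14, and 6 were lower, while Trp63 was not called (0.03). The 6 melanocyte markers summed to at most 9.42 CPM in any library, with 3 of 3 tested lower, and the 6 goblet cell markers to at most 3.02 CPM in WT and 31.1 CPM in KO, with 3 of 4 tested higher. A marker near 0 in WT could pass the filter on low counts only by being high in KO. The counts of higher markers among those tested were therefore fixed in part by the filter. The part of these cell types in the replication gene values was not tested.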

How the data were processed

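RNA was measured in 6 bulk libraries of corneal epithelium, grouped by the titles and genotype labels. Per the study's methods, the authors depleted ribosomal RNA, sequenced single-end reads on a BGI instrument (the labels name an Illumina kit), filtered them with SOAPnuke, aligned them with Bowtie2 2.2.5 and estimated gene levels with RSEM 1.2.12. The deposited table gives RSEM estimated counts, FPKM and TPM per gene and library, in 18 columns that all matched a labelled sample. RSEM divides reads that match several genes, which makes similar genes uncertain. The submitters' notes name mm9, whereas the gene positions of the table are those of GRCm38. The deposited log2 fold changes and p-values of the authors' own comparison, and their group means, were not used.

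For the test, estimated counts were rounded, and edgeR 4.0.16 (R 4.3.3) was run with TMM, filterByExpr, the quasi-likelihood test and genotype as the only term, with p-values adjusted by Benjamini-Hochberg over the 13305 genes tested. P-values measure only the spread between these samples. The share of all counts in the 40 genes had a 95% Wilson interval of at most 0.00167 percentage points either way, which covers counting error only. Alternatives used DESeq2 1.42.0, other size factors and filters, robust dispersion, limma 3.58.1 on log2(FPKM + 1) and log2(FPKM + 0.1), a gene length offset, the replicate number as a block, and each library left out. On data simulated for this comparison over 13146 genes, edgeR called 73.5% of genes changed 2-fold, 98.0% of those changed 4-fold and 0.062% of unchanged ones. Only 98 genes were changed at each fold there, whereas 62.0% of tested genes were called in the data. In the data the median SE was 0.263 for the 40 genes and 0.139 for all tested genes. The simulated percentages therefore do not carry over to the 40 genes.

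Promoters were those of RefSeq on GRCm38.p6, and exon overlaps were read from GENCODE M21. The members, lists and tests were chosen with earlier results of these data known. Genes named were the 40 members, Rela, up to 5 called genes with the largest change (mean count of 50 or more in the higher group) from each further list except the cell type markers, the defining cell type markers, and a few cell cycle genes (Mki67, Top2a, Ccnb1, Cdk1, Ccnd1, Ccnd2, Cdkn1a, Cdkn2a, Myc, Ccna2, Tk1 and Lig1). S100a9, Itgam and Ms4a1 were named after their values were seen, as were the comparisons of the MCM shares and of ratios between genes. Some genes that this rule names are not reported here by name. Protein sequences were not analysed here. Python 3.11.15, pandas 2.3.3, numpy 2.4.6, scipy 1.17.1 and matplotlib 3.10.9 were used.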

Additional observations from a re-analysis of the deposited data

How the results depend on the processing

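Over the 17 alternatives, E2f8 and Nasp kept their calls as higher and Pold3 as lower, Wdr76 was called in 15 and Usp1 in 12. The number of the 40 genes called was 5 and moved most without WT replicate 2. Leaving out each library in turn gave 4 to 17 called, 2 to 16 of them higher and 1 to 4 lower, and 0 to 2 by the study's stricter rule. DESeq2 called 9 (5 higher) and 1 by the study's stricter rule, the gene length offset 9 (6 higher), and a replicate block in the fit 10 (7 higher). Deviations of same-numbered libraries from their group means had correlations of 0.065, -0.022 and 0.064 over all tested genes. Those of differently numbered libraries ran from -0.168 to 0.099. So few values over all genes cannot decide whether same-numbered libraries were paired. Of the 52 further replication genes 21 were called, 13 with the length offset and 12 to 29 with each library left out. The total called in each of the other lists and over all genes stayed within 1.5 times, but of the 30 further repair genes the number higher went from 1 to 5 without WT replicate 2. In the 250 bases before the start alone, the E2F share was 25.0%, beside 3.33% for the mitosis genes and 2.16% of all. The CHR share there was 25.0%, beside 56.7% for the mitosis genes and 28.1% of all. Total counts moved the median of all log2 fold changes by -0.09 and the length offset by 0.09. Signs that turned were all of genes that were not called: with total counts Mcm4 (-0.045), Ccne1 (-0.023), Ccne2 (-0.00069), Exo1 (-0.082), Brip1 (-0.058) and Cdkn1a (-0.052), with the length offset Pcna (-0.11), Prim1 (-0.028) and Cdkn1a (-0.034), with RLE factors Slbp (3.3e-04), with a mean count of at least 50 Slbp (0.019), with no filter Exo1 (-0.0046), and with limma on log2(FPKM + 1) and log2(FPKM + 0.1) Ccne1 (-0.025, -0.029), Exo1 (-0.017, -0.012), Brip1 (-0.027, -0.032) and Cdkn1a (-0.073, -0.074). With each library left out, the log2 fold change ran from -0.56 to 0.11 for Mcm2, -0.57 to 0.14 for Mcm3, -0.17 to 0.39 for Mcm4, -0.11 to 0.69 for Mcm5, -0.68 to 0.073 for Gins2, -0.60 to 0.032 for Cdc6, -0.020 to 0.66 for Cdc45, -0.38 to 0.31 for Cdt1, -0.30 to 0.39 for Rrm2, -0.13 to 0.15 for Slbp, -0.45 to 0.23 for Uhrf1, -0.66 to 0.12 for Dtl, -0.074 to 0.29 for Ccne1, -0.16 to 0.39 for Ccne2, -0.20 to 0.42 for Exo1, -0.22 to 0.23 for Rpa2, -0.52 to 0.15 for Ung, -0.12 to 0.31 for Brip1, -0.13 to 0.19 for Cdkn1a and -0.45 to 0.29 for Lig1. Causes were not tested. With 3 libraries a group and 1 WT library apart from the others, the precision is low for most of the 40 genes, and scarce genes such as Gins1 rest on few counts.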
